A study of Mus musculus with 2 samples.

Results

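The 45 genes described here encode the machinery that copies DNA and the enzymes that supply its deoxynucleotides, measured in the embryonic mouse heart. They were taken from a list of symbols for these functions and matched by Ensembl identifier, and all 45 of 45 were found among 43346 gene rows. A library of total RNA was made from each of 2 E14.5 heart samples (embryonic day 14.5) of the mouse strain B6NCrl. The labels name no transgene, mutant allele or treatment. The samples were collected on separate days in July, replicate 1 on day 15 and replicate 2 on day 17, so sample and collection day cannot be told apart. The labels call each sample a single heart and also give its sex as pooled male and female. Which holds is not stated, and heart below means sample. The series holds 1 group, so the data give the level of each gene and the spread between 2 libraries, and no test between conditions.

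Copying of the genome begins when the origin recognition complex, with Cdc6 and Cdt1, loads the ring-shaped MCM2-7 helicase onto DNA in G1, and Geminin (Gmnn) keeps Cdt1 from loading it again after replication has started. In S phase Cdc45 and the GINS complex turn the loaded ring into an active helicase, DNA polymerase alpha with primase lays down primers, the RFC complex loads the PCNA clamp, and DNA polymerases delta and epsilon extend both strands. Many of these genes are classical targets of E2F transcription factors and are expressed mainly in dividing cells. Heart muscle cells, which largely stop dividing after birth, still divide in the fetus.

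Estimated counts summed to 2.85e+07 in replicate 1 and 2.90e+07 in replicate 2, and the 45 genes held 0.329% and 0.308% of the counts on gene rows. Cardiomyocyte markers were abundant (summed TPM of 8 markers 27013 and 25758, TPM being a length-adjusted level, scaled to the same total in each library). Liver and lung markers were near background, with 0 of 3 reaching 1 TPM in both libraries for each list, and the lung marker Sftpc was at 0 in both. The 9 erythroid markers differed between the libraries, with summed TPM of 58899 in replicate 1 and 32895 in replicate 2. In bulk RNA fewer cells of a type and less RNA per cell cannot be told apart.

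The sequence just before the start of these genes carried E2F-type words more often than that of other genes. RefSeq start sites on GRCm38.p6 gave 45 promoter windows for 37 of the 45 genes, and Gins1, Gins2, Gins4, Gmnn, Mcm4, Pole, Prim2 and Rfc2 had no entry. The 250 bases before each start were searched on both strands for TTTCCCGC, TTTCGCGC, TTTGCCGC and TTTGGCGC. A word was present for 9 of 37 genes (24.3%), against 2.72% of 17491 protein-coding genes with a window of the same length. These were Orc1 and Orc3 of the origin recognition complex, the loading factor Cdc6, the helicase subunits Mcm5, Mcm6 and Mcm7, Gins3, the polymerase alpha subunit Pola1 and the clamp loader subunit Rfc3. Mcm7 had more than 1 window and a word in only 1 of them. What lies before the start depends on the annotation. In GENCODE M21 the outermost starts of Orc1, Cdc6, Mcm7, Gins3 and Rfc3 lie farther upstream, so that their words fall inside the gene. The windows of Mcm6, the most abundant of the 6 MCM2-7 transcripts, and of Mcm5, the least abundant, are shown 5′ to 3′ on the gene's strand, with the E2F words in capitals. Mcm6 lies on the minus strand (chr1:128359706-128359955) and Mcm5 on the plus strand (chr8:75109259-75109508).
Mcm6: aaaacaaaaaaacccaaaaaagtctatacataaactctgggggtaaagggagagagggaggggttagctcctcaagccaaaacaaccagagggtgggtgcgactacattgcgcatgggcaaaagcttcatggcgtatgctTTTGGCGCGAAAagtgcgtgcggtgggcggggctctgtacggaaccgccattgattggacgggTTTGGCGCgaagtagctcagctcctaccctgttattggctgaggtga
Mcm5: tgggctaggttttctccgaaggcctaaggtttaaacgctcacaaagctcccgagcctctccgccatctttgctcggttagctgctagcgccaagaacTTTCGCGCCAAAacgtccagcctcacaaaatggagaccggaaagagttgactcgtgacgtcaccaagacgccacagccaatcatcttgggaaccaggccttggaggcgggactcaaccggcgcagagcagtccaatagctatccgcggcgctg

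In Mcm6 a word and the reverse complement of another overlapped, their first bases 110 and 106 bases before the start, and a separate word began 47 bases before it. Mcm5 had the same overlapping arrangement, at 153 and 149 bases. Each of the other 7 genes had a single match, shown here as at most 30 bases around the word, because the word and its flanks differ from gene to gene.
Orc1 (plus strand, chr4:108579416-108579445): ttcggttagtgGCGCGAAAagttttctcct
Orc3 (minus strand, chr4:34614965-34614994): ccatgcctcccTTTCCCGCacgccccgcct
Cdc6 (plus strand, chr11:98908002-98908031): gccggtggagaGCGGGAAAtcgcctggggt
Mcm7 (minus strand, chr5:138172030-138172059): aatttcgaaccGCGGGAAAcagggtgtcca
Gins3 (plus strand, chr8:95633507-95633536): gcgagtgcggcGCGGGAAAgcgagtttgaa
Pola1 (minus strand, chrX:93632275-93632304): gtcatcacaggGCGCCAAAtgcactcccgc
Rfc3 (minus strand, chr5:151651209-151651229): acgtcgcacgcTTTCGCGCtc

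Across the 12 matches the median first base lay 108 bases before the start. Within 100 bases of the start a word was present for 5 of 37 genes (13.5%), against 1.19% of protein-coding genes. The CCAAT box, the word CCAAT on either strand, was present in the 250 bases for 23 of 37 genes (62.2%) against 39.5%, and together with an E2F word for 7 of 37 genes, against 218 of 17491. In the Mcm6 and Mcm5 windows printed above there are 2 CCAAT words each, nearer the start than the first E2F word. The CHR words TTTGAA and TTCGAA, bound in other genes by the MuvB complex, were at the background share, in 7 of 37 genes (18.9%) against 18.4%. A match is a description of the letters, and the data hold no measurement of binding. The 9 genes with an E2F word had a median level of 39.3 TPM, from 2.53 to 114 TPM, and the 28 without one had 51.7 TPM, from 11.1 to 155 TPM, so levels overlapped widely.

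All 45 genes reached 1 TPM in each library, here called detected, as did 56.8% of the 21474 protein-coding gene rows. At least 10 TPM was reached by 42 of the genes (35.4% of protein-coding rows), at least 50 TPM by 19 (11.1%) and at least 100 TPM by 3 (5.66%). The median of the 45 mean levels was 42.7 TPM, with library medians of 44.1 and 41.0 TPM (SD 2.18, n = 2), against 16.1 TPM for the 12202 detected protein-coding genes. Above that background median lay 36 of the 45, and 9 lay below it. The levels differed far more between the genes than between the hearts. The coefficient of variation of a gene over the 2 libraries had a median of 4.11% (5.51% for detected protein-coding genes) and was under 10% for 42 of the 45. By level, 19 of the 44 neighbouring pairs in the order had both values of one gene above both values of the next, so the order is only partly resolved.

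**Figure D1:**
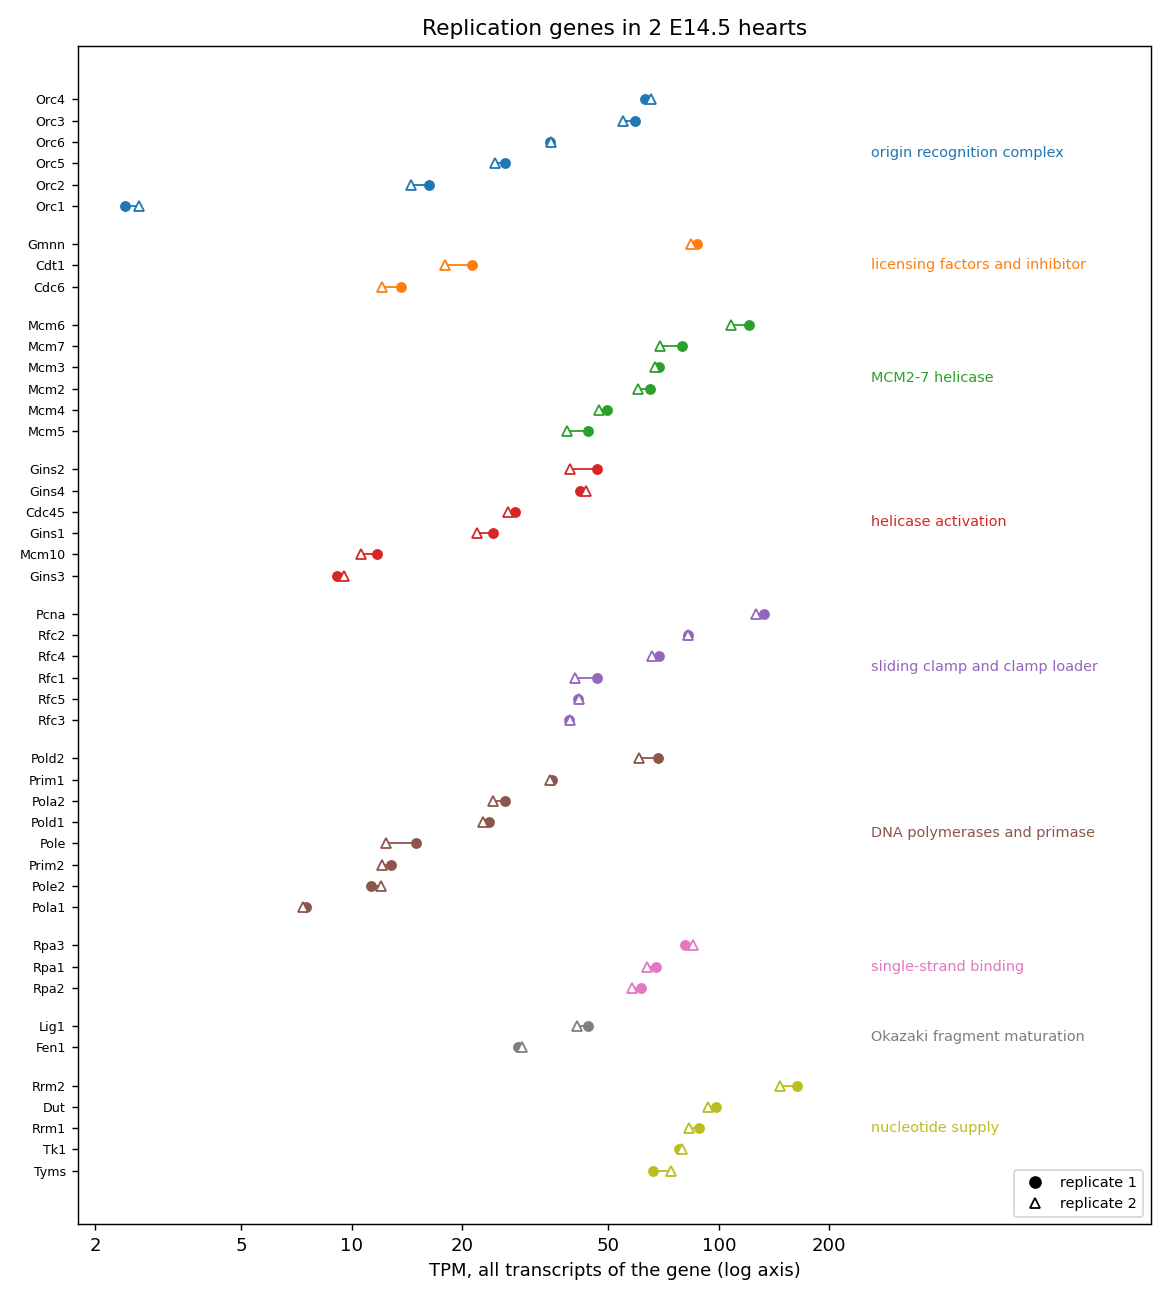
TPM of each of the 45 genes (log axis) in replicate 1 (filled circles) and replicate 2 (open triangles), grouped and coloured by role and sorted by mean within each group. The 2 symbols of a gene lie close together, while Orc1 at 2.41 and 2.64 TPM stands below all other genes and Rrm2 at 163 and 147 TPM above them.

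Origin recognition complex transcripts were far from equal. Orc1, the subunit whose protein is known to be removed and remade with the cell cycle, was the least abundant of the 45 genes at 2.41 TPM in replicate 1 and 2.64 TPM in replicate 2. Orc2 was next at 16.2 and 14.5 TPM, and both its values exceeded both values of Orc1. Orc5 (26.2 and 24.5 TPM) and Orc6 (34.6 and 35.0 TPM) lay above Orc2. Orc3 had 59.2 and 55.0 TPM, and Orc4 was highest at 63.0 and 65.5 TPM. The order was the same in both libraries, and the highest subunit exceeded the lowest 26.1-fold and 24.8-fold. Orc1 also had the fewest counts, 137 and 147, so its level rests on the least data.

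Among the licensing factors the inhibitor was the most abundant. Gmnn had 87.1 and 83.8 TPM. Its target Cdt1 had 21.3 and 18.0 TPM, which put Cdt1 below Gmnn by 2.12 ± 0.13 on the log2 scale (SD, n = 2, TPM plus 0.1). Cdc6, the ATPase that recruits Cdt1 with the helicase, had 13.6 and 12.1 TPM. The 3 genes did not overlap in their values.

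The MCM2-7 ring contains 1 copy of each subunit, and its 6 transcripts lay within a 2.74-fold range in replicate 1 and a 2.78-fold range in replicate 2. Mcm6 was highest at 121 and 108 TPM. Mcm7 followed at 79.4 and 69.1 TPM, Mcm3 at 68.9 and 66.9 TPM and Mcm2 at 64.8 and 60.4 TPM. The order was identical in both hearts, but the lower value of Mcm7, 69.1 TPM, lay only just above the higher value of Mcm3, 68.9 TPM. Mcm4 had 49.5 and 47.1 TPM, and Mcm5 was lowest at 44.1 and 38.7 TPM. Transcripts of the ring were thus close but not equal: both values of Mcm6 lay above all values of the other 5 subunits.

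The genes that activate the helicase had lower levels. The GINS complex also holds 1 copy each of 4 subunits, and these differed more: Gins2 had 46.7 and 39.3 TPM, Gins4 41.9 and 43.6 TPM, Gins1 24.2 and 21.9 TPM and Gins3 9.13 and 9.54 TPM. Gins3 was the lowest of the group in both libraries, while Gins2 and Gins4 exchanged places (all transcripts). Cdc45 had 27.8 and 26.6 TPM. Mcm10, an initiation factor outside the ring, had 11.7 and 10.6 TPM. The highest gene exceeded the lowest 5.11-fold and 4.57-fold.

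Pcna, the sliding clamp that tethers polymerases to DNA, was the second most abundant of the 45 at 133 and 126 TPM. Its loader was less abundant. The small subunit Rfc2 had 82.5 and 82.6 TPM, Rfc4 had 68.7 and 65.6 TPM, and Rfc5 had 41.3 and 41.5 TPM. Rfc3 was lowest at 39.2 and 39.3 TPM, and the large subunit Rfc1 had 46.5 and 40.7 TPM. Rfc1 and Rfc5 exchanged places between the libraries, and the group spanned 3.40-fold and 3.20-fold.

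Polymerase transcripts were among the lowest, and the catalytic subunits of polymerases alpha, delta and epsilon each lay below at least 1 accessory subunit. Pola1, the catalytic subunit of polymerase alpha, had 7.51 and 7.39 TPM, and its partner Pola2 had 26.2 and 24.2 TPM. In the primase the order was the opposite, with Prim1, which makes the RNA primer, at 35.1 and 34.8 TPM and Prim2 at 12.8 and 12.1 TPM. For polymerase delta, catalytic Pold1 had 23.6 and 22.8 TPM and accessory Pold2 had 68.2 and 60.8 TPM, a difference of 1.47 ± 0.08 on the log2 scale (1.93 on protein-coding transcripts only). For polymerase epsilon, catalytic Pole had 15.0 and 12.4 TPM, Pole2 had 11.3 and 12.0 TPM and the histone-fold subunit Pole3 had 37.0 and 39.4 TPM. Pole3 exceeded Pole by 1.48 ± 0.26 on the log2 scale (1.94 on coding transcripts). Pole2 lay below Pole in both libraries with all transcripts summed, and above it on coding transcripts (11.3 and 12.0 TPM against 10.7 and 8.28 TPM), so the order of these subunits depends on which transcripts are counted. Transcript length and level were inversely related across the 45 genes (Spearman rho -0.37, a description over genes), as across the detected protein-coding genes (-0.32).

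RPA, the trimer that coats single-stranded DNA, had near-equal subunit levels with all transcripts summed. Rpa3 had 80.8 and 85.2 TPM, Rpa1 67.4 and 63.7 TPM and Rpa2 61.5 and 57.9 TPM. The range of RPA, 1.31-fold and 1.47-fold, was the narrowest of the groups of 3 or more genes. On coding transcripts only it widened to 2.60-fold and 2.70-fold. For the joining of lagging-strand fragments, DNA ligase I (Lig1) had 43.9 and 41.0 TPM and the flap endonuclease Fen1 had 28.4 and 29.1 TPM. Lig1 exceeded its relative Lig3 by 1.19 ± 0.04 on the log2 scale, and Fen1 exceeded the exonuclease Exo1 by 0.56 in each library.

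The nucleotide supply genes had the highest median of the 9 role groups, 88.2 TPM in replicate 1 and 83.2 TPM in replicate 2. Rrm2, the small subunit of ribonucleotide reductase that is made in S phase, was the most abundant of all 45 genes at 163 and 147 TPM. Its large-subunit partner Rrm1 had 88.2 and 83.2 TPM. The alternative small subunit Rrm2b, which works outside S phase, had 12.0 and 12.3 TPM, 13.7-fold and 11.9-fold below Rrm2. Dut, which removes dUTP, had 98.5 and 93.7 TPM. The cytosolic thymidine kinase Tk1 had 78.1 and 79.4 TPM, 8.77-fold and 9.57-fold above the mitochondrial enzyme Tk2 (8.91 and 8.29 TPM). Thymidylate synthase (Tyms) had 66.0 and 74.3 TPM when all its transcripts were summed. In both hearts the S-phase form of each reductase and kinase pair was thus the higher one by more than the spread between libraries.

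For a few genes most of the TPM lay on transcripts that are not annotated as protein coding, and Tyms was the extreme case. The deposited tables listed 217 transcripts of the 45 genes, and 36 genes had more than 1. Types were taken from GENCODE M21, a later release than that of the tables. Rfc1 was left out of coding levels because 6 of its transcripts are not in M21, and for Pold1, which has 3 such transcripts, the coding level may be too low. Of Tyms (chr5:30058202-30073617 on GRCm38, minus strand), 26.9 and 31.2 TPM were on the nonsense-mediated decay model Tyms-205, and 14.1 and 19.9 TPM were on the retained-intron model Tyms-202. The retained-intron model Tyms-206 held 15.3 and 13.4 TPM. Only 6.75 and 6.35 TPM (10.2% and 8.55%) were on the protein-coding Tyms-201. Short models weigh more in TPM than in counts: Tyms-205 is 797 nt long and Tyms-201 is 3163 nt, and by counts the coding share was 22.9% and 21.3%. On coding transcripts Tyms fell from rank 11 of the 45 to rank 43 of 44. The split of reads that fit more than 1 model is an estimate, so the coding level and rank of Tyms are uncertain.

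For 3 other genes less than 50% of the TPM was on coding transcripts in both libraries, although by counts most of each gene was coding. The coding share of counts was 72.8% and 80.8% for Gins2, 80.0% and 81.9% for Rpa1 and 63.1% and 51.7% for Orc4. Gins2 had 31.3 and 27.0 TPM on the retained-intron model Gins2-204 (511 nt) and 11.6 and 12.3 TPM on the coding Gins2-201 (3900 nt). With coding transcripts only, the gap between Gins2 and Gins3 narrowed. Gins4 was then the highest of the helicase activation genes in both libraries, and Mcm10 (7.39 and 6.61 TPM) was the lowest in place of Gins3. Rpa1 had 36.3 and 32.4 TPM on the retained-intron model Rpa1-205 (716 nt), which left 30.8 and 31.3 TPM on coding transcripts. Rpa1 was then the lowest RPA subunit, and the trimer spanned 2.60-fold and 2.70-fold. Orc4 spread over 13 transcripts the most abundant of which held 19.1% and 23.9% of its TPM, and its coding level was 24.8 and 20.3 TPM. Orc3 was then the highest origin recognition subunit, and Orc1 stayed lowest, with a range of 17.1-fold and 16.3-fold.

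The remaining genes were less affected. Of the 44 genes with known types, 26 (59.1%) had at least 90% of their TPM on coding transcripts in both libraries, against 65.1% of 11788 detected protein-coding genes. Under 50% were 4 (9.09%), against 6.45%. At least 10% of the TPM was on retained-intron models in both libraries for 13 of 45 genes (28.9%), against 16.1% of the detected protein-coding genes. These 13 included Mcm3, Mcm10, Rfc3, Rfc4, Rfc5, Prim2, Pold1, Pold2, Pole and Tk1 besides Gins2, Rpa1 and Tyms. Tk1 kept 49.2 and 49.1 TPM on coding transcripts and stayed 5.52-fold and 5.92-fold above Tk2. The MCM2-7 range stayed at 2.72-fold and 2.79-fold, with Mcm2 now above Mcm3. The median coding level of the 44 genes was 33.0 TPM. The leading transcript by TPM was the same in both libraries for 42 genes, and those of Orc4, Lig1 and Fen1 changed. For Fen1 the coding models Fen1-201 and Fen1-202, of like length, exchanged the lead (14.2 and 6.54 TPM against 10.6 and 12.3 TPM). Their split is an estimate for reads that fit both.

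**Figure D2:**
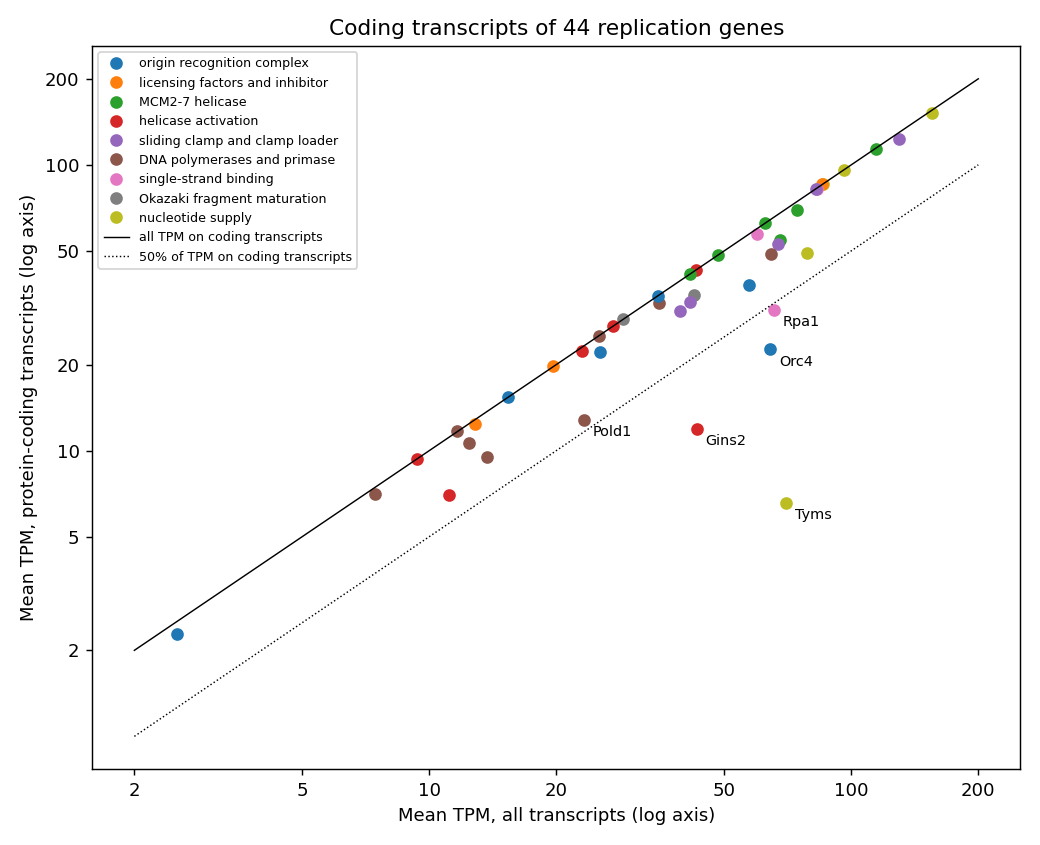
Mean TPM on protein-coding transcripts against mean TPM on all transcripts for the 44 genes other than Rfc1 (both axes log), coloured by role, with genes under 60% labelled. Of the 44 genes, 26 have at least 90% of their TPM on coding transcripts and lie on or near the solid line of equal values, Tyms lies far below it with 6.55 TPM coding, and Gins2, Orc4 and Rpa1 lie below the dotted line at 50%.

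With TMM scaling, replication genes were slightly lower in replicate 2 as a set, and no single gene differed much. In TMM-scaled estimated counts 38 of 45 genes (84.4%) were lower in replicate 2. Of all 16387 genes averaging 10 or more counts, 50.3% were lower, and of the 11958 averaging 100 or more, 51.9%. The median difference of the 45 was -0.12 (log2 of replicate 2 over replicate 1), against 0.00 and -0.01 for these backgrounds. None of the 45 was lower or higher by 0.32 on this scale, a ratio of 5 to 4. Among all genes averaging 10 or more counts, 9.29% were lower and 12.3% higher by that much, and 4.03% were at least 2-fold apart. Among those averaging 100 or more, the shares were 3.34%, 5.30% and 0.426%. The differences of the 45 genes had an SD of 0.09, against 0.31 for the 10722 genes in the same count range. Orc1, with the fewest counts, alone sets the lower end of that range, a mean count of 142. Of all genes averaging 100 or more counts, the middle 50% lay between -0.10 and 0.09, so their SD owes much to the tails.

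By role, all 6 MCM2-7 genes were lower in replicate 2, by 0.12 to 0.24 on the log2 scale. All 3 licensing genes were lower by 0.10 to 0.29, and all 5 nucleotide supply genes by 0.04 to 0.20. Of the latter, Tk1 and Tyms were at only -0.04, and in TPM both were higher in replicate 2 (0.02 and 0.17). The largest differences were those of Cdt1 (931 and 793 counts), at -0.29 with an exact Clopper-Pearson 95% interval of -0.43 to -0.15, and of Pole (1119 and 957 counts) at -0.28. Mcm5 (3065 and 2707 counts) followed at -0.24, then Orc2 (1039 and 919 counts) and Lig1 (1641 and 1459 counts), both at -0.23. At the other end were Orc1 and Rfc1 at 0.04, Rpa3 and Pole2 at 0.03 and Gins3 at 0.01, each with an interval that held 0. Those of Tk1 and Tyms held 0 as well. The interval lay below 0 for 22 of the 45 genes (48.9%), against 20.4% of genes with at least 100 counts, and above 0 for none, against 17.0%. With spike-in scaling it lay below 0 for 7, and with scaling on the total gene count for 16. For these 2 scalings the share of all genes was not computed. These intervals cover counting error only, reads are not independent molecules, and with 1 library per sample no test between the samples is possible. The difference in each gene is small, 1.22-fold at most with TMM scaling. The 45 genes share 1 pair of libraries and are not replicates of each other, so the data show their place relative to other genes and no large change. The 9 genes with an E2F word and the 28 without one had medians of -0.13 and -0.12, with 6 of 9 and 25 of 28 lower in replicate 2.

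**Figure D3:**
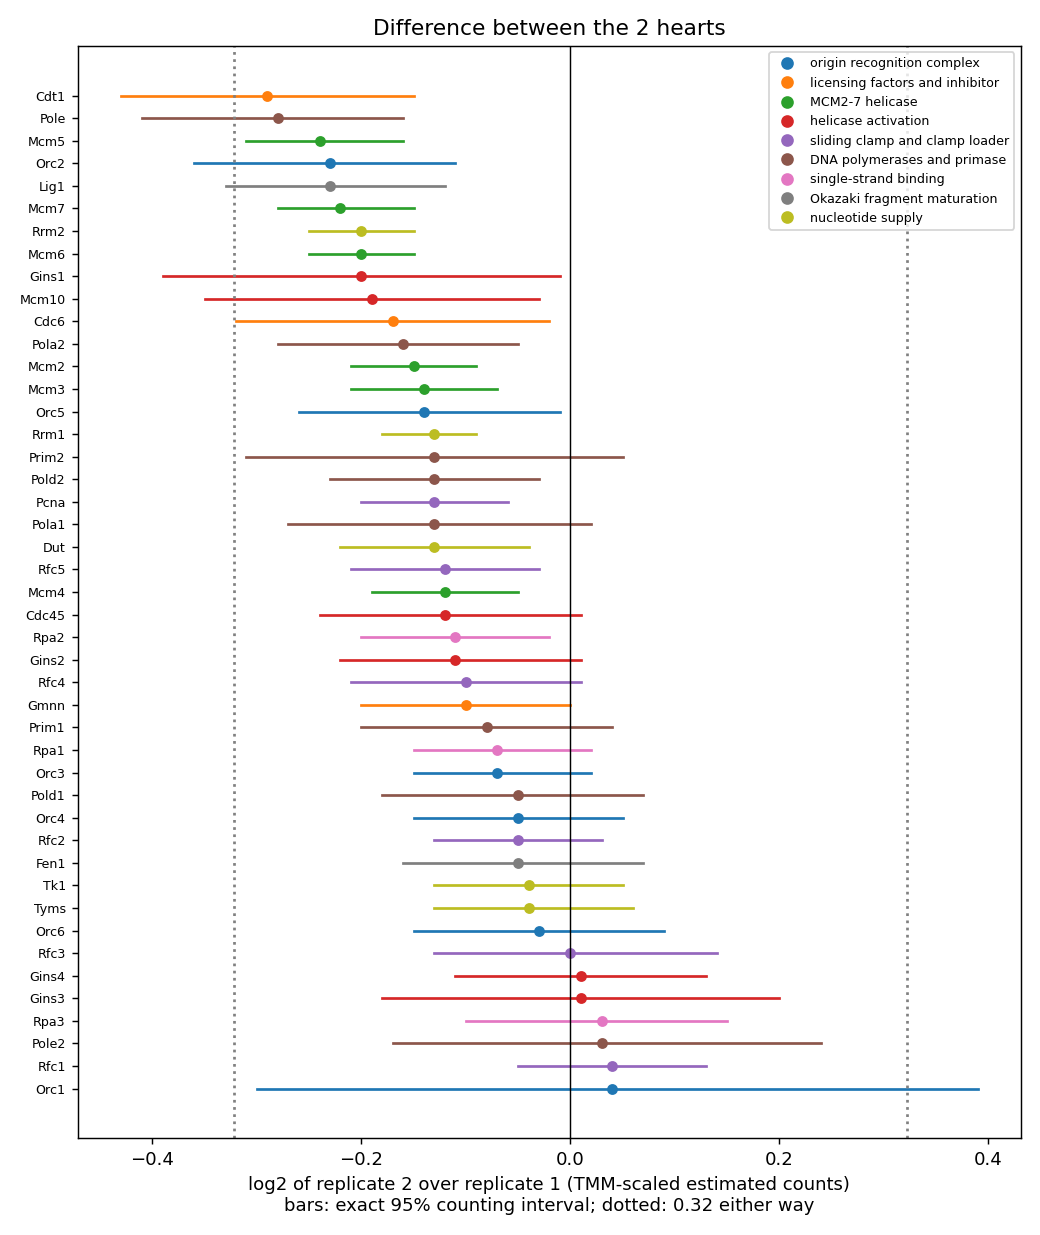
Log2 difference (replicate 2 over replicate 1, TMM-scaled estimated counts) of each of the 45 genes, sorted and coloured by role, with exact 95% counting intervals as bars and dotted lines at 0.32 either way. Of the points, 38 lie left of 0, none passes a dotted line, and the intervals of 22 genes lie wholly below 0.

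The direction depends on what the libraries are scaled to. Scaling on the spike-in total raised the median of all genes with at least 100 counts to 0.11, and 24 of the 45 were then below 0, with a median of -0.01. Since a scaling shifts every gene by the same amount, the place of the 45 genes relative to the median of all genes does not depend on it: 38 of 45 lay below that median, and their own median was 0.11 below it, a comparison added after the data were seen. In TPM 32 of 45 were lower, where the median of all genes with at least 100 counts was 0.04 and 38 of the 45 lay below it. For 8 genes TPM and counts had opposite signs, a share that was not computed for all genes. Rfc1 was 0.04 higher in counts and 0.19 lower in TPM (46.5 and 40.7 TPM), and its effective length was 0.28 larger on the log2 scale in replicate 2, with the share of the 485-nt model falling from 44.6% to 32.4%. Tyms was 0.04 lower in counts and 0.17 higher in TPM.

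Cell type markers moved between the libraries as well. All 9 erythroid markers differed by more than 0.32, 8 lower and Epor higher in replicate 2, with a median of -0.90. The 8 cardiomyocyte markers had a median of -0.09, with 7 lower, and the 6 mesenchyme and fibroblast markers had 0.16, with 5 higher. The summed TPM of 4 epicardial markers was 74.1 and 92.6, and that of 5 neural markers was 6.19 and 13.7. Most of the epicardial rise was in Upk3b (26.6 and 41.5 TPM), while Wt1 was nearly level (18.1 and 18.4 TPM). Epcam, an epithelial marker in the lung list, had 3 counts in replicate 1 and 54 in replicate 2 (0.07 and 1.32 TPM), which brought the summed TPM of that list from 0.07 to 1.39. Their part in the difference of the replication genes was not tested.

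Other genes of replication and nucleotide metabolism were examined as 95 genes in 10 lists. All 95 were detected in both hearts and 79 had 10 TPM or more, with a median of 22.9 TPM. With TMM scaling 69 of the 95 were lower in replicate 2, with a median of -0.09. Of all genes averaging 100 or more counts, 51.9% were lower, a share that also stands beside the list counts below. The direction depends on the scaling here too, and the 95 genes were not counted under other scalings. By a ratio of 5 to 4 or more, 5 of the 95 were lower and 1 was higher. Of all genes averaging 100 or more counts, 3.34% were lower and 5.30% higher by that much. The 5 were Donson, Recql4, E2f2, E2f7 and Exo1, chosen here after their values were seen, and the 1 was Chtf8 at 0.44. E2f1 and Shmt1, at a rounded -0.32, fell just short. The counting interval of Recql4, -0.72 to 0.04, held 0. These calls rest on counts, and TPM did not bear out all of them. Exo1 was slightly higher in replicate 2 in TPM (19.2 and 19.7 TPM), and E2f7 was only slightly lower. Donson, Recql4 and E2f2 were lower in TPM as well, and Chtf8 was higher. Among 7 origin firing genes the median was 9.97 TPM, from Recql4 (1.64 and 1.35 TPM) to the kinase activator Topbp1 (36.9 and 32.8 TPM). Fork protection genes ranged from Atad5 (4.37 and 4.14 TPM) to Tipin (74.6 and 75.4 TPM), and of 10 genes 6 were lower in replicate 2. Replication-coupled chromatin genes were led by the histone chaperone Nasp (61.8 and 60.6 TPM), and the subunit Chaf1a of the CAF-1 chaperone was lowest (9.80 and 10.1 TPM). Topoisomerase Top2a, which untangles sister DNA, had 131 and 135 TPM, and the differences of the 3 topoisomerases lay between -0.06 and -0.01.

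Of the regulators, 18 E2F and DREAM genes had a median of 13.3 TPM, from E2f2 (2.44 and 1.98 TPM) to the E2F partner Tfdp1 (65.2 and 63.0 TPM). With TMM scaling 13 of the 18 were lower in replicate 2, with a median of -0.09, against 51.9% of all genes averaging 100 or more counts. Ddb1, part of the ubiquitin ligase that destroys Cdt1 in S phase, led the licensing degradation list at 185 and 177 TPM, and Cul4b was lowest at 17.1 and 15.9 TPM. The other deoxynucleotide enzymes ranged from Tk2 to the nucleoside diphosphate kinase Nme2 (315 and 333 TPM), with 12 of 15 lower in replicate 2. De novo purine and pyrimidine genes ranged from Cad (10.5 and 9.16 TPM) to the purine enzyme Paics (184 and 181 TPM), with 12 of 16 lower and none past 0.32 either way.

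**Figure D4:**
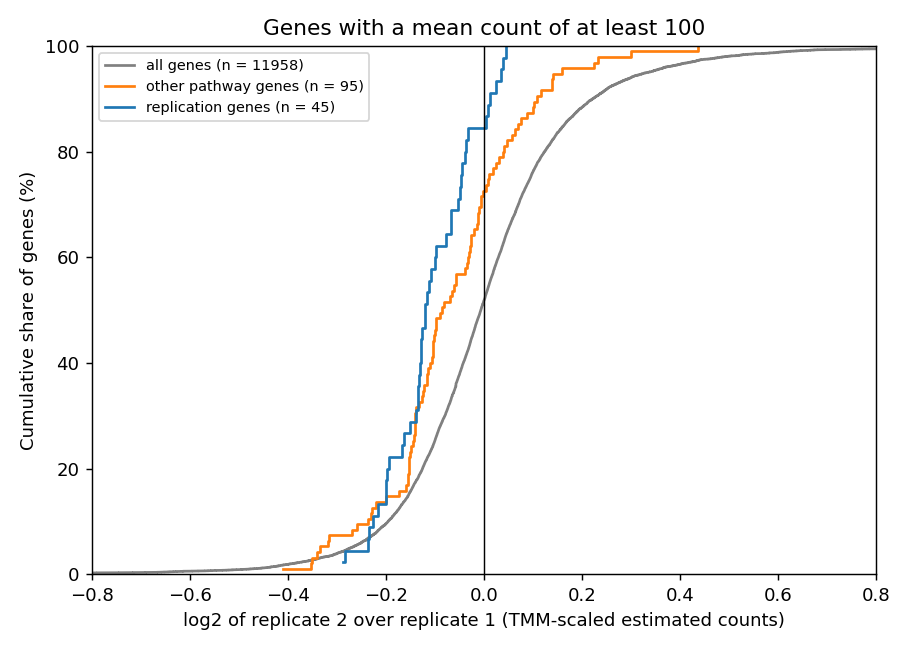
Cumulative share of genes by log2 difference between the libraries (TMM-scaled estimated counts), for the 45 replication genes, the 95 other pathway genes and all 11958 genes averaging 100 counts or more. The curve of the 45 genes rises steeply between -0.29 and 0.04, left of the curve of all genes, and that of the pathway genes lies between them for most of its course.

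The position of these genes bears on how their reads can be told apart from those of neighbours. In GENCODE M21, 14 of the 45 (31.1%) had the start of another gene on the other strand, pointing away, within 1000 bases of their own start, against 10.8% of 21951 protein-coding genes, and 7 (15.6%) had a protein-coding one against 6.79%. Orc3 and Rars2 start 13 bases apart, Orc1 and Prpf38a 87 bases, Rpa1 and Smyd4 109 bases, Rpa3 and Umad1 115 bases, Pole and Pxmp2 120 bases, Mcm4 and Prkdc 466 bases and Gins1 and Abhd12 659 bases. The partners need not have like levels: Prpf38a had 46.7 and 41.0 TPM beside Orc1 at 2.41 and 2.64 TPM, and Mcm4 at 49.5 and 47.1 TPM lies beside Prkdc at 6.04 and 5.64 TPM. Exons of 17 of the 45 genes overlap those of another gene, on the opposite strand for 14. The use of strand in counting is not stated, so such reads cannot be assigned with certainty. For Gins2 67.3% of the exon length lies opposite Gse1 (6.62 and 7.80 TPM), and for Fen1 78.8% lies opposite the antisense gene Gm10143 (2.45 and 1.75 TPM). Shared words were sought in the leading transcript by counts in replicate 1. It shared at least 10% of its 25-base words with other genes for 17 of 44 genes, and 18 shared none. Besides such overlaps these were often processed pseudogenes, such as Pcna-ps2 for Pcna (40.6% of words), listed at 1.64 and 0.94 TPM, and Gm5487 for Mcm7 (42.4%). Shares over all protein-coding genes were not computed for exon overlap or shared words, so these counts do not set the 45 genes apart. The levels of the genes concerned are less certain, although the posterior SD in the tables was at most 1.35% of the count, for Fen1.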

How the data were processed

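Per the labels' protocols, RNA above 200 nt was isolated by the mirVana method, 10 ng went into each library together with spike-in RNAs, and a Smart-seq protocol is cited. Notes deposited with the files name mm10 as the assembly and GENCODE M4 as the annotation. The aligner and the counting program were not given in the sources used here. For each gene and transcript the authors deposited an expected count, which shares ambiguous reads, TPM scaled over all rows, FPKM, posterior means with their SD, and the percent of a gene's TPM on each transcript, per the file headers. FPKM was used only as an alternative. Names, types and positions came from GENCODE M21. Expected counts were rounded, scaled by TMM in edgeR 4.0.16 (R 4.3.3) with a prior of 0.5, and filtered at a mean count of 10 or 100. DESeq2 1.42.0 size factors were an alternative. The difference calculation was tested on simulated data. No p-values were computed. Pair ratios used TPM plus 0.1, and 1 pair is not reported here. The 45 genes and all lists were chosen with earlier results of these data known. Named were all 45 genes, highest and lowest members of lists, pairs and members with the largest differences. Coding-only levels, the comparison with the median of all genes and the counts by promoter window were added after the values were seen.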

Additional observations from a re-analysis of the deposited data

How the results depend on the processing

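Over the alternatives, 77 values stayed and 12 moved. A count had moved if it changed by over 1.5 times. A level or range had moved if it changed by more than 1 SD between the libraries. The cause was not tested except where the construction gives it. Many of the 77 had little or no room to move, so the tally does not measure robustness. Leaving out a library shifts a mean of 2 libraries by less than their SD. Rescaling a whole library, as in FPKM, barely alters a range. Count scaling keeps the place of the genes relative to the median of all genes. The replication genes all pass the count filters, which leave their values unchanged. The median level of the genes, 42.7 TPM, became 46.1 TPM over gene rows alone, 52.3 TPM also without mitochondrial and haemoglobin genes, and 33.0 TPM on coding transcripts. The highest over the lowest gene, 61.5-fold, became 40.9-fold with posterior mean TPM. On coding transcripts only, which was added after seeing the data, the range became 16.7-fold for the origin recognition complex (25.4-fold), 6.93-fold for polymerases and primase (8.66-fold) and 23.2-fold for nucleotide supply (2.21-fold). Of the values for pair ratios, 40 stayed within 1 SD and 8 moved without a change of sign, among them Tk1 to Tk2, from 3.18 to 2.50 on the log2 scale with coding transcripts. Many of the 40 could hardly move either, being ratios with a library left out or in FPKM. Spike-in scaling gave a median difference of -0.01, 24 genes lower in replicate 2 and 7 with an interval below 0. Within 100 bases of the start, 5 genes had an E2F word and 2 a CHR word. FPKM keeps the order of genes within a library. Leaving out a library leaves no difference between libraries. No paired analysis was possible because the series holds 1 group. Depth limits Orc1 most, with an interval of -0.30 to 0.39.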
